A study of Mus musculus with 50 samples.

Results

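The levels of 9 genes of death receptor signaling, necroptosis and pyroptosis were followed through a series of mouse sarcomas: the death receptors Fas and Tnfrsf10b, the ligand Tnfsf10 (TRAIL), the initiator caspase Casp8, the necroptosis genes Ripk3 and Mlkl, and the pyroptosis genes Casp1, Casp4 and Gsdmd. They were chosen by name, with no threshold on a value but with earlier results of these data known. They are 9 of the 37469 gene identifiers counted in the series, and counts of them against all genes are a description. Bulk RNA-seq was done on 48 tumors and on 2 libraries of line 402230. In all tumors the tumor cells carried a deletion of Trp53. Primary sarcomas were raised in p53FL/FL mice on a 129/SvJae background, at 6 to 10 weeks of age. Adeno-Cre and the carcinogen MCA (3-methylcholanthrene) were injected into their gastrocnemius muscle. Transplants were grown in the muscle of syngeneic mice from cells of 402230, a single line made from 1 such primary tumor.

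Tumors received 0 Gy or 20 Gy and either an isotype control antibody or muDX400, an antibody to PD-1, and were taken 3 days later. Each of the 4 primary groups (0 Gy with isotype, 0 Gy with anti-PD-1, 20 Gy with isotype, 20 Gy with anti-PD-1) held 8 tumors and each of the 4 transplant groups held 4. The transplants therefore stand for 1 tumor line, whereas the primary tumors were separate tumors. The labels name no processing batch, and the replicate numbers given below only name libraries.

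In death receptor signaling, a ligand such as TRAIL or Fas ligand binds its receptor, which gathers an adaptor and caspase-8 and starts apoptosis. Caspase-8 also cleaves the kinases that would otherwise start necroptosis, in which RIPK3 phosphorylates MLKL and MLKL opens the plasma membrane. In pyroptosis, caspase-1 in inflammasomes, or caspase-11 (the product of mouse Casp4) bound to lipopolysaccharide, cuts gasdermin D, whose free end forms pores. Myeloid cells are known for strong inflammasome gene expression, interferons are known inducers of many of these genes, and Fas and Tnfrsf10b are textbook targets of p53.

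The 48 tumor libraries held 31810461 to 54008259 counts, and the 9 genes had at least 56 counts in every tumor. Levels are CPM, counts scaled to library size with TMM factors, over the 48 tumors for the 9 genes and over all 50 libraries for markers and for line 402230. Mesenchymal markers (Vim, Col1a1 and 5 others) summed to 6592 to 67710 CPM, macrophage markers to 919 to 6462 CPM and the epithelial markers to at most 17.02 CPM. Skeletal muscle markers, which report the surrounding tissue, ranged widely, from a sum of 15.6 to 88440 CPM. Reads of Trp53 remained, at 19.7 to 61.0 CPM (median 29.1); without a group that kept the gene, this level checks no label.

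The 2 libraries of line 402230 went against their labels. The library labelled as the parental primary tumor had 0.114 CPM of the leukocyte marker Ptprc, none of 10 macrophage markers above 11.8 CPM, Adgre1 at 0, and a macrophage sum of 15.6 CPM. The library labelled as the cell line, which should hold no host cells, had 81.6 CPM of Ptprc, a macrophage sum of 1273 CPM and 288 CPM of endothelial markers. Both are therefore called here only by what they are labelled, no direction is drawn from their labels, and neither entered the tests.

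In unirradiated primary tumors, levels per kilobase of exon ran from Casp8 at 22.7 ± 2.67 CPM per kb (SD, n = 16) down to Casp4 at 1.74 ± 1.23. Mlkl (21.0 ± 7.77), Gsdmd (18.2 ± 5.25) and Ripk3 (17.3 ± 6.84) followed Casp8 closely, and neighbors in this order did not differ beyond their spread: Casp8 was above Mlkl in 10 of 16 tumors, Mlkl above Gsdmd in 10 and Gsdmd above Ripk3 in 9. Tnfrsf10b (9.59 ± 1.62) was below Ripk3 in all 16 tumors and above Casp1 (6.53 ± 2.19) in 13. Casp1 was above Fas (3.42 ± 1.39) in all 16, Fas above Tnfsf10 (2.23 ± 0.831) in 14, and Tnfsf10 above Casp4 in 12. In the 8 unirradiated transplants the first place went to Gsdmd, at 33.8 ± 5.58 CPM per kb and above Mlkl in all 8, and Casp1 (11.4 ± 4.88) stood above Tnfrsf10b (8.07 ± 1.33) in 6 of 8. In both models Casp8, Ripk3, Mlkl and Gsdmd held the first 4 places and Fas, Tnfsf10 and Casp4 the last 3.

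**Figure D1:**
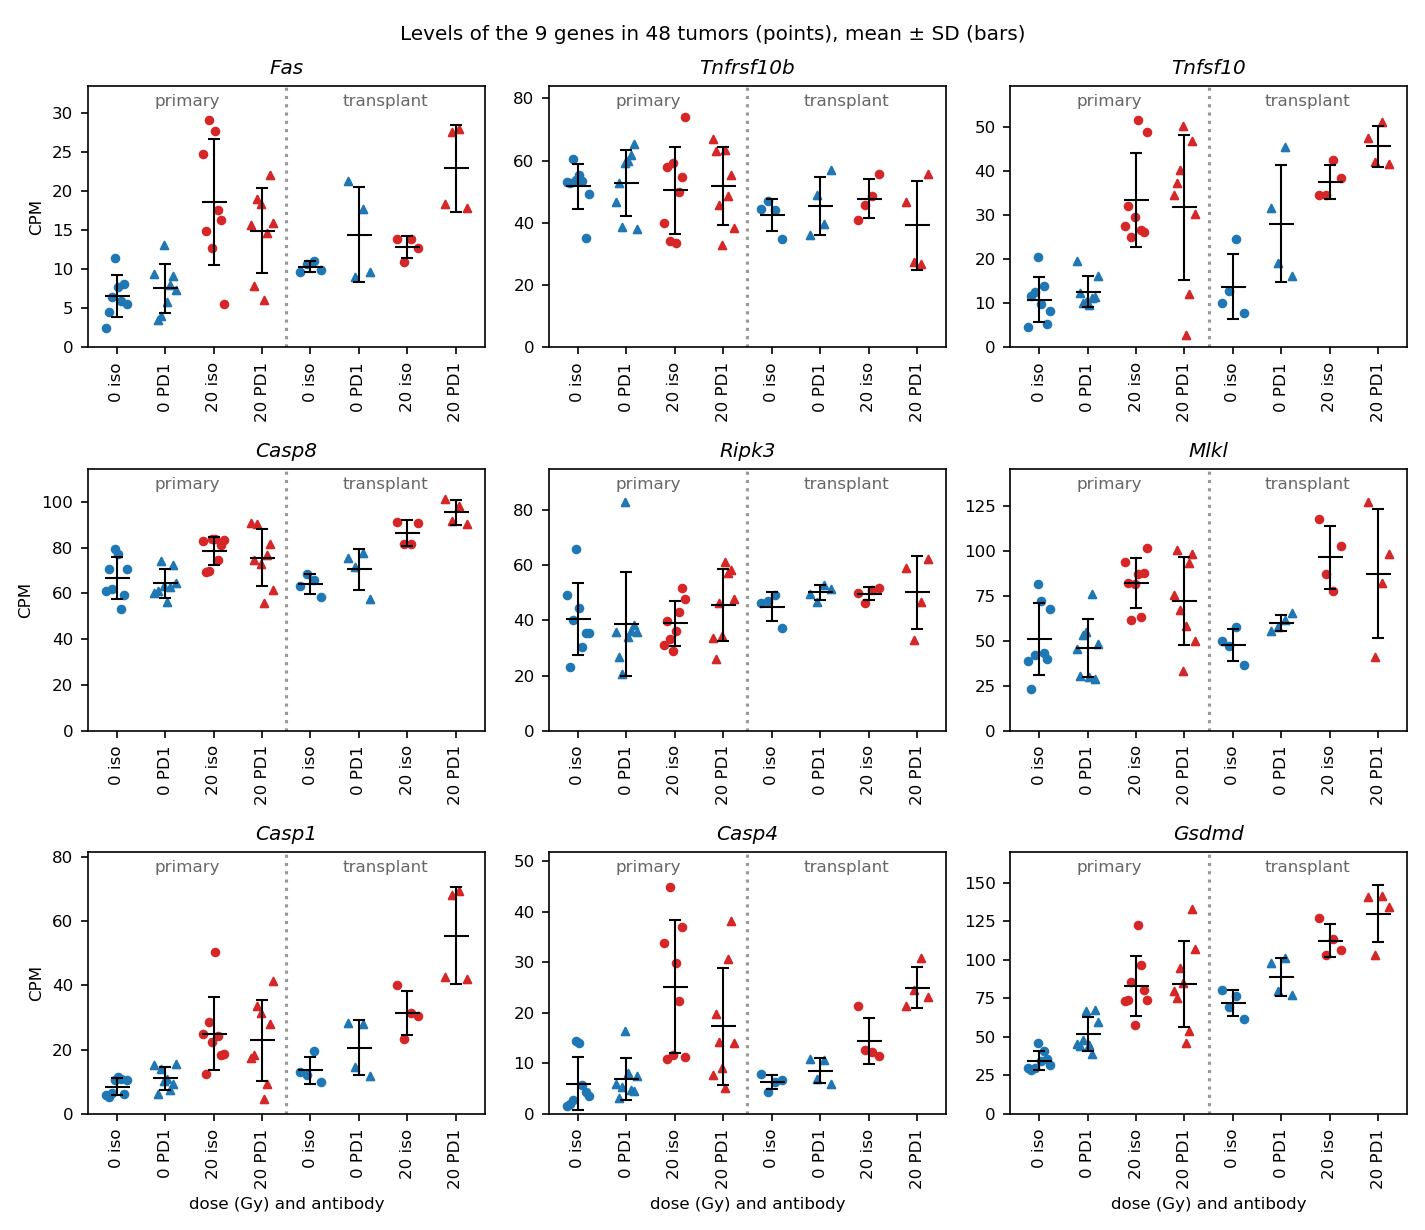
Level of each gene in CPM (vertical axis, from 0) in the 48 tumors, by dose and antibody (horizontal axis; iso, isotype; PD1, anti-PD-1), with primary tumors left of the dotted line and transplants right of it. Points are tumors (blue, 0 Gy; red, 20 Gy; circles, isotype; triangles, anti-PD-1) and bars are mean ± SD; all 8 irradiated transplants lie above all 8 unirradiated ones for Casp4, Casp8 and Gsdmd.

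The question of what radiation does to these genes was asked first in primary tumors, 16 at 20 Gy against 16 at 0 Gy with both antibodies averaged. Of the 9 genes, 7 rose and none fell, where 16.8% of the 19327 genes tested rose. The rises ran from 1.18-fold for Casp8 to 3.24-fold for Casp4, and only the receptor Tnfrsf10b and the kinase Ripk3 did not pass the test. The median log2 change of the 9 genes was 0.98, against 0.0037 over all genes tested. In bulk tumors, fewer cells of a type and less RNA per cell cannot be told apart, and the labels do not say more of the replicates than that they are separate tumors.

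Among the receptors and the ligand, Fas and Tnfsf10 rose and Tnfrsf10b did not pass the test. With isotype, Fas (lowest, median, highest) stood at 2.48, 6.21 and 11.4 CPM at 0 Gy and at 5.54, 16.9 and 29.1 CPM at 20 Gy; with anti-PD-1 it stood at 3.54, 7.70 and 13.1 CPM and at 6.10, 15.8 and 22.1 CPM. Of the 16 irradiated tumors, 12 lay above every unirradiated one, and the doses overlapped. Fas rose 2.37-fold (log2 1.24 ± 0.20 SE, edgeR adjusted p = 7.62e-06). Tnfsf10, which encodes the ligand of the Tnfrsf10b product, stood at 4.54, 10.8 and 20.6 CPM at 0 Gy and at 25.1, 28.6 and 51.5 CPM at 20 Gy with isotype, groups that did not overlap. With anti-PD-1 it stood at 9.68, 11.4 and 19.6 CPM and at 2.87, 36.0 and 50.2 CPM, where replicates 5 and 6 at 20 Gy (2.87 and 12.1 CPM) were low and the groups overlapped. Tnfsf10 rose 2.79-fold (log2 1.48 ± 0.23, edgeR adjusted p = 4.61e-06). The receptor itself, Tnfrsf10b, had a median of 53.3 CPM at 0 Gy (35.2 to 65.3) and 52.3 CPM at 20 Gy (32.8 to 73.9), with a log2 change of -0.03 (95% interval -0.26 to 0.19, edgeR adjusted p = 0.861). Ligand and receptor thus differed in their response, and an upward change of more than 0.19 on the log2 scale lay outside the interval for the receptor.

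Casp8 and the necroptosis genes changed less. Casp8, the initiator caspase of the death receptors, had a median of 63.1 CPM at 0 Gy (53.3 to 79.7) and 79.0 CPM at 20 Gy (56.0 to 90.9), with 8 of 16 irradiated tumors above all unirradiated ones. It rose 1.18-fold (log2 0.23 ± 0.06, edgeR adjusted p = 0.00412). Mlkl, the membrane-breaking effector of necroptosis, stood at 23.0, 42.6 and 81.5 CPM at 0 Gy and at 61.7, 84.6 and 101.5 CPM at 20 Gy with isotype, and at 28.5, 46.7 and 75.8 CPM and 32.9, 71.3 and 100 CPM with anti-PD-1; the doses overlapped. It rose 1.59-fold (log2 0.67 ± 0.16, edgeR adjusted p = 0.00126). Ripk3, the kinase that activates MLKL, had a median of 35.8 CPM at 0 Gy (20.5 to 83.0) and 41.4 CPM at 20 Gy (25.9 to 61.3), and its log2 change was 0.09 (95% interval -0.19 to 0.37, edgeR adjusted p = 0.677).

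All 3 pyroptosis genes rose, and Casp4 had the highest fold of the 9 members. Casp1, the inflammasome protease, stood at 5.41, 8.59 and 11.6 CPM at 0 Gy and at 12.3, 23.3 and 50.3 CPM at 20 Gy with isotype, groups that did not overlap; with anti-PD-1 it stood at 6.28, 10.4 and 15.4 CPM and at 4.52, 23.1 and 41.2 CPM, where replicates 5 and 6 at 20 Gy (4.52 and 9.44 CPM) were low. It rose 2.47-fold (log2 1.30 ± 0.21, edgeR adjusted p = 7.45e-06). Casp4 stood at 1.496, 3.90 and 14.3 CPM at 0 Gy and at 10.9, 26.1 and 44.8 CPM at 20 Gy with isotype, and at 3.16, 5.64 and 16.3 CPM and 5.16, 14.1 and 38.1 CPM with anti-PD-1. Of the 16 irradiated tumors 8 lay above all unirradiated ones, whose 3 highest stood at 13.99, 14.34 and 16.34 CPM. It rose 3.24-fold (log2 1.70 ± 0.29, edgeR adjusted p = 1.89e-05). Casp1 and Casp4 lie side by side on the plus strand of chromosome 9, with 1562 bases between their annotated ends (chr9:5298517-5307265 and chr9:5308828-5336783, GRCm38), and their exons overlap no other gene. Gsdmd, the pore-forming substrate of both, stood at 28.6, 33.0 and 46.1 CPM at 0 Gy and at 57.8, 76.9 and 122.3 CPM at 20 Gy with isotype, groups that did not overlap, and at 38.9, 46.5 and 67.5 CPM and 46.2, 82.3 and 132.9 CPM with anti-PD-1, which overlapped. It rose 1.98-fold (log2 0.98 ± 0.11, edgeR adjusted p = 1.08e-08). Across both antibodies no member separated all irradiated from all unirradiated primary tumors, as 0.0414% of the genes tested did. For separations within 1 antibody, here and for Tnfsf10, the share of all genes is not given, so they have no background. No single library, left out alone, ended any of the 7 calls in primary tumors.

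In transplants, 8 irradiated against 8 unirradiated with both antibodies averaged, 6 of the 9 genes rose and none fell, where 5.85% of the genes tested rose; the median log2 change of the 9 was 0.60 against -0.0242 over all genes. The 6 were Tnfsf10, Casp1, Casp4, Casp8, Mlkl and Gsdmd, and Fas did not pass the test. Casp4, Casp8 and Gsdmd were higher in every irradiated transplant than in any unirradiated one, a separation that 2.83% of the genes tested showed.

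Casp4 stood at 7.80, 4.33, 6.37 and 6.61 CPM at 0 Gy and at 21.3, 12.7, 12.2 and 11.45 CPM at 20 Gy with isotype. With anti-PD-1 it stood at 10.8, 6.88, 10.6 and 5.91 CPM and at 21.4, 24.6, 30.8 and 23.1 CPM. It rose 2.59-fold (log2 1.37 ± 0.41, edgeR adjusted p = 0.0282). Casp1 stood at 13, 11.98, 19.45 and 9.865 CPM at 0 Gy and at 40.2, 23.3, 31.5 and 30.5 CPM at 20 Gy with isotype, and at 28.1, 14.7, 27.9 and 11.7 CPM and 42.6, 68.0, 69.2 and 42.1 CPM with anti-PD-1; within each antibody the doses did not overlap. It rose 2.49-fold (log2 1.32 ± 0.30, edgeR adjusted p = 0.00257). Gsdmd stood at 80.0, 69.1, 76.7 and 61.6 CPM at 0 Gy and at 126.9, 102.8, 113.6 and 106.4 CPM at 20 Gy with isotype. With anti-PD-1 its values were 97.61, 79.65, 101.2 and 77.24 CPM and then 140.96, 103.1, 141.5 and 134.4 CPM. It rose 1.51-fold (log2 0.60 ± 0.16, edgeR adjusted p = 0.0105).

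Tnfsf10 stood at 10.0, 12.9, 24.6 and 7.80 CPM at 0 Gy and at 34.7, 34.5, 42.4 and 38.4 CPM at 20 Gy with isotype, which did not overlap. With anti-PD-1 it stood at 31.6, 19.2, 45.4 and 16.2 CPM and at 47.5, 42.0, 51.2 and 41.7 CPM, which overlapped through replicate 3 at 0 Gy. It rose 2.10-fold (log2 1.07 ± 0.325, edgeR adjusted p = 0.0325). Casp8 stood at 63.3, 68.7, 66.0 and 58.4 CPM at 0 Gy and at 91.4, 81.5, 81.7 and 91.0 CPM at 20 Gy with isotype, and at 75.5, 71.6, 77.5 and 57.8 CPM and 101.5, 91.7, 98.1 and 90.3 CPM with anti-PD-1. It rose 1.35-fold (log2 0.43 ± 0.09, edgeR adjusted p = 0.000977). Mlkl stood at 50.1, 47.1, 58.0 and 36.3 CPM at 0 Gy and at 117.8, 87.2, 77.58 and 103.03 CPM at 20 Gy with isotype, which did not overlap. With anti-PD-1 it stood at 55.5, 57.7, 61.3 and 65.6 CPM and at 127.1, 41.26, 82.22 and 98.57 CPM, where replicate 2 at 20 Gy lay below all unirradiated tumors of that antibody. It rose 1.71-fold (log2 0.775 ± 0.225, edgeR adjusted p = 0.0239).

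Fas stood at 9.59, 10.6, 11.1 and 9.95 CPM at 0 Gy and at 13.8, 10.9, 13.9 and 12.7 CPM at 20 Gy with isotype, and at 21.35, 8.99, 17.6 and 9.69 CPM and 18.3, 27.5, 27.9 and 17.9 CPM with anti-PD-1, which overlapped in both. Its log2 change was 0.49 (95% interval -0.06 to 1.04, edgeR adjusted p = 0.352). Tnfrsf10b stood between 34.8 and 57.1 CPM at 0 Gy and between 26.8 and 55.8 CPM at 20 Gy (log2 -0.02, 95% interval -0.34 to 0.30, edgeR adjusted p = 0.972), and Ripk3 between 37.3 and 52.7 CPM and between 33.0 and 62.1 CPM (log2 0.07, 95% interval -0.32 to 0.47, edgeR adjusted p = 0.904). For neither gene was a change detectable in either model.

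The rises of Casp1, Casp8 and Gsdmd in transplants passed the test whichever single library was left out. That of Tnfsf10 did not pass without transplant 0 Gy isotype replicate 1 (edgeR adjusted p = 0.0783), 2 (0.0596) or 4 (0.0808), 0 Gy anti-PD-1 replicate 2 (0.0784) or 4 (0.0915), 20 Gy isotype replicate 3 (0.0568) or 4 (0.0509), or 20 Gy anti-PD-1 replicate 3 (0.0522). That of Casp4 did not pass without 0 Gy isotype replicate 2 (0.0627), 0 Gy anti-PD-1 replicate 2 (0.0599) or 4 (0.0711), or 20 Gy isotype replicate 1 (0.0617), and that of Mlkl without 0 Gy isotype replicate 4 (0.0538) or 20 Gy anti-PD-1 replicate 1 (0.0598). Without the filter on low counts, the rises of Tnfsf10 (edgeR adjusted p = 0.0611) and Casp4 (0.054) did not pass either. In each of these the direction stayed upward.

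The difference of the radiation response between the models was tested itself, and no member passed, where 0.0259% of the genes tested did. The lowest p-values were those of Fas (log2 -0.75 ± 0.34 in transplants relative to primary tumors, unadjusted p = 0.0342, edgeR adjusted p = 0.527) and Gsdmd (log2 -0.39 ± 0.19, unadjusted p = 0.0486, edgeR adjusted p = 0.581), so that the Fas call in primary tumors alone is not shown to differ between models. For Casp1 the difference was 0.015 (95% interval -0.695 to 0.724).

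**Figure D2:**
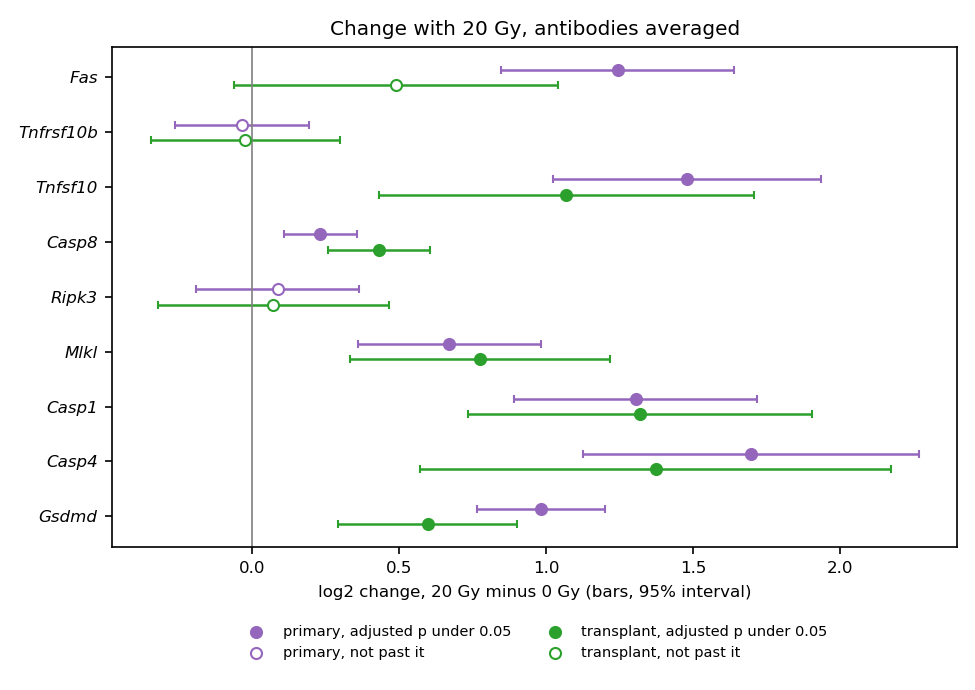
Fitted log2 change with 20 Gy (horizontal axis; bars, 95% interval) of each gene (vertical axis) in primary tumors (purple) and transplants (green), antibodies averaged; filled points have an adjusted p under 0.05. The intervals of Tnfrsf10b and Ripk3 include 0 in both models, and Casp4 has the highest value in both, 1.70 and 1.37.

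Markers of other cells were read in the same comparisons. Of the 19327 genes tested, 3253 rose and 2743 fell with radiation in primary tumors, and 1131 rose and 267 fell in transplants. Of the 10 macrophage markers, 8 rose in primary tumors and 5 in transplants; none was at 0 in any group of tumors. Their summed level was 1666 to 3606 CPM in unirradiated and 919 to 6462 CPM in irradiated primary tumors, and 1449 to 3512 CPM and 3212 to 6188 CPM in transplants. Neutrophil markers rose in 5 of 6 in primary tumors (sums of 10.7 to 389 CPM at 0 Gy and 31.1 to 803 CPM at 20 Gy) and in 1 of 6 in transplants (40.5 to 615 CPM and 120.9 to 329 CPM), and Ptprc rose in both (log2 0.97 and 1.51). Skeletal muscle markers rose in 8 of 9 in primary tumors and in none in transplants. Their sums in primary tumors were 66.2 to 8162 CPM (median 1830) at 0 Gy and 15.6 to 88440 CPM (median 2016) at 20 Gy. With isotype these medians were 1859 and 1493 CPM, and with anti-PD-1 1503 and 2052 CPM. NK cell markers rose for 4 of 5 in primary tumors (sums of 6.67 to 126.3 CPM, median 16.7, at 0 Gy and 7.27 to 218.9 CPM, median 52.9, at 20 Gy). In transplants 1 of 5 rose, and the NK sums, 10.5 to 64.2 CPM at 0 Gy and 76.7 to 174.9 CPM at 20 Gy, did not overlap. Of 7 mesenchymal markers, 1 fell in primary tumors, a share near that of all genes, and none in transplants. Their median sums without and with radiation were 25010 and 16310 CPM in primary tumors, whose ranges overlapped, and 14750 and 11150 CPM in transplants. No T cell marker passed in either model. With the macrophage list mean added as a covariate, an alternative chosen after the data were seen, 6 members passed in primary tumors. Only the call of Casp8 was lost (log2 0.16, edgeR adjusted p = 0.0866), where calls over all genes, in either direction, went from 5996 to 3446. In that fit the log2 change was 0.88 for Fas and for Tnfsf10, 0.68 for Casp1, 1.503 for Casp4, 0.78 for Mlkl and 0.83 for Gsdmd. In transplants only Casp8 (log2 0.34, edgeR adjusted p = 0.0362) and Mlkl (log2 0.93, edgeR adjusted p = 0.0271) passed in that fit, with Tnfsf10 at 0.47, Casp1 at 0.62, Casp4 at 1.08 and Gsdmd at 0.40. Calls over all genes in transplants also fell, from 1398 to 546. The macrophage list mean was itself higher after radiation, in primary tumors with isotype 7.99 against 7.43 log2 CPM. As a covariate it therefore cannot separate more macrophages from more RNA per cell. The part of these other cells in the changes of the 9 genes was not tested.

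Within groups of 1 treatment, tumors with more of a gene list were compared with their levels of each member, as deviations from group means over the 48 tumors (27 relations, permutation within groups, two-sided). Casp1 went with the macrophage list mean (Pearson r = 0.735, adjusted permutation p = 0.00027, Spearman rho = 0.659, adjusted permutation p = 0.0004, r = 0.602 without the 2 libraries farthest from the median), and so did Tnfsf10 (r = 0.655, adjusted permutation p = 0.0045, rho = 0.478, adjusted permutation p = 0.0081, r = 0.367 without the 2) and Fas (r = 0.469, adjusted permutation p = 0.0084, rho = 0.486, adjusted permutation p = 0.0081, r = 0.362 without the 2). Tnfrsf10b went against it (r = -0.499, adjusted permutation p = 0.0051, rho = -0.534, adjusted permutation p = 0.0047, r = -0.448 without the 2). Within transplants alone r was 0.869 for Casp1, 0.70 for Tnfsf10, 0.823 for Fas and -0.636 for Tnfrsf10b, and within primary tumors 0.706, 0.65, 0.408 and -0.456.

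Mlkl went instead with the interferon response list (r = 0.669, adjusted permutation p = 0.00067, rho = 0.732, adjusted permutation p = 0.00027, r = 0.658 without the 2 farthest), and its r with the macrophage list was -0.23 (adjusted permutation p = 0.25). Here the unadjusted permutation p of 1e-05 for rho, and for r of Casp1 with the macrophage list, is the smallest that the permutations can give. Tnfsf10 also went with the interferon list (r = 0.631, adjusted permutation p = 0.0014, rho = 0.494, adjusted permutation p = 0.0047, r = 0.622 without the 2), as did Casp8 (r = 0.511, adjusted permutation p = 0.0096, rho = 0.413, adjusted permutation p = 0.026, r = 0.587 without the 2). For Casp4 only r passed (r = 0.487, adjusted permutation p = 0.015, rho = 0.323, adjusted permutation p = 0.096, r = 0.426 without the 2). Within primary tumors and within transplants, r with the interferon list was 0.647 and 0.804 for Mlkl, 0.639 and 0.578 for Tnfsf10, 0.48 and 0.698 for Casp8, and 0.514 and 0.257 for Casp4. Against the skeletal muscle list, r was -0.442 for Tnfrsf10b (adjusted permutation p = 0.012), -0.375 for Ripk3 (adjusted permutation p = 0.033) and -0.377 for Mlkl (adjusted permutation p = 0.033), with rho of -0.461, -0.402 and -0.391 (adjusted permutation p = 0.0084, 0.028 and 0.028), and r of -0.378, -0.424 and -0.433 without the 2 farthest. Within primary tumors those 3 values of r were -0.515, -0.386 and -0.362 and within transplants -0.235, -0.352 and -0.431. The other 16 relations passed by neither measure.

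**Figure D3:**
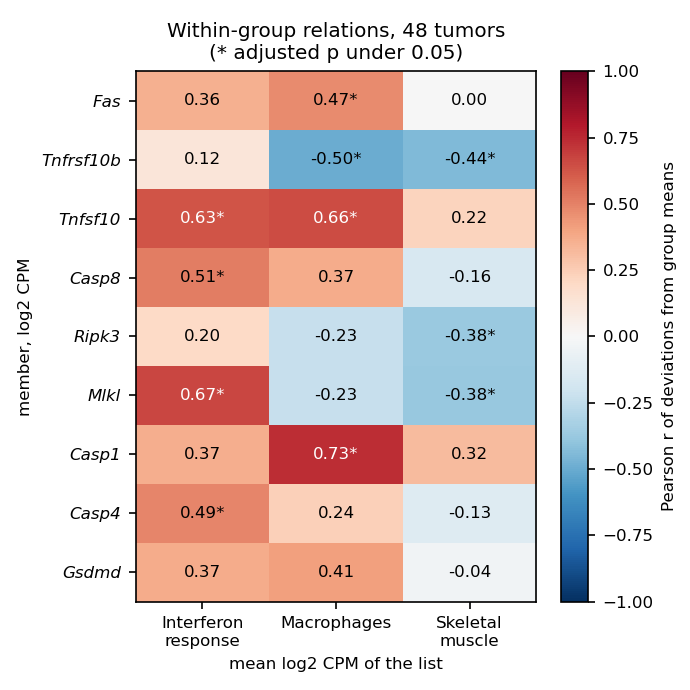
Pearson r (color and number) between each gene (vertical axis) and the mean log2 CPM of the interferon response, macrophage and skeletal muscle lists (horizontal axis), from deviations from group means over 48 tumors; asterisks mark adjusted permutation p under 0.05. Casp1 is highest with macrophages (0.735) and Mlkl with the interferon list (0.669), and Tnfrsf10b is negative with macrophages and muscle.

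The genes most alike across all 48 tumors, treatment included, are given as a description. Among 12116 genes at an average log2 CPM of at least 2, Casp1 was closest to C130026I21Rik (r = 0.926), March1 (0.925) and Ctss (0.923), the last a lysosomal protease of antigen-presenting cells. Gsdmd was closest to Irf1 (0.914), Gbp4 and Tgtp1 (both 0.911), which are interferon-induced genes. Mlkl was closest to Usp18 (0.844), Ifi35 (0.843) and Bst2 (0.842), and Tnfsf10 to Gm4951 (0.955), Gm12250 (0.948) and Sp110 (0.946). Casp4 was closest to H2-K2 (0.925), Lilr4b (0.903) and Trim30b (0.875), Casp8 to Rnf114 (0.856), Trim30a (0.834) and Phf11b (0.818), and Fas to Bcl2a1a (0.893), Slfn2 (0.876) and Samsn1 (0.873). Over all 48 tumors, treatment included, the members without a detectable change with radiation had lower values. Tnfrsf10b had Cask (0.80), Hspa9 (0.787) and Mfsd10 (0.775), and Ripk3 had Il1rl1 (0.711), Ptges (0.693) and Rnf149 (0.672). Within transplants alone these r were 0.951, 0.906 and 0.932 for Tnfrsf10b and 0.821, 0.755 and 0.425 for Ripk3. Within primary tumors they were 0.685, 0.683 and 0.652 for Tnfrsf10b and 0.644, 0.633 and 0.656 for Ripk3. Several of the genes named here, among them Bcl2a1a, H2-K2, Lilr4b and the Trim30 genes, have close paralogs, with which they may share reads.

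Promoter windows of 300 bases, from 250 before to 50 after an annotated start, were taken from RefSeq (GRCm38.p6) for the 7 members it lists there: Fas, Tnfsf10, Casp1, Casp4, Casp8, Ripk3 and Mlkl, with 8 windows since Casp4 has a pair. On both strands, the core of the interferon-stimulated response element (ISRE, letters GAAANNGAAA) was in none of them and in 3.44% of all 32851 windows. The interferon-gamma activated site (GAS, letters TTCNNNGAA) was in the Fas window and in 8.3% of all windows, and a match to the NF-kB consensus was in both Casp4 windows and in 4.51% of all. No member window held the p53 consensus decamer or a pair of decamers, against 8.36% and 0.0731% of all windows. These are matches of letters in a short window, and none says that a factor binds there. The windows of Fas and Casp4 are shown because they hold a match, with its letters in capitals (GAS in Fas, and 2 overlapping NF-kB matches in Casp4), and that of Tnfsf10 because its level went with the interferon list without one. They are Fas chr19:34290409-34290708, Casp4 chr9:5308599-5308898 and Tnfsf10 chr3:27316827-27317126, all on the plus strand and written 5′ to 3′.
Fas: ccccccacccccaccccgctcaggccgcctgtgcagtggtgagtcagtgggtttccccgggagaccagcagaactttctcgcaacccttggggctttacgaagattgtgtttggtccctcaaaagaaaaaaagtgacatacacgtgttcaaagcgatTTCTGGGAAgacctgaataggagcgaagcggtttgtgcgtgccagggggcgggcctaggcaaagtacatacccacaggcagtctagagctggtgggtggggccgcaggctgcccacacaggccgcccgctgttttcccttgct
Casp4: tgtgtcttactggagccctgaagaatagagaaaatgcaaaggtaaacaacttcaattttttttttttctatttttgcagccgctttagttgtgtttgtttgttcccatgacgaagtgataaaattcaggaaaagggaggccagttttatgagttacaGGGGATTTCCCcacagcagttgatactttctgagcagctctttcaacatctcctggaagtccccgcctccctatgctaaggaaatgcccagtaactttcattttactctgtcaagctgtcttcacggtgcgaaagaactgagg
Tnfsf10: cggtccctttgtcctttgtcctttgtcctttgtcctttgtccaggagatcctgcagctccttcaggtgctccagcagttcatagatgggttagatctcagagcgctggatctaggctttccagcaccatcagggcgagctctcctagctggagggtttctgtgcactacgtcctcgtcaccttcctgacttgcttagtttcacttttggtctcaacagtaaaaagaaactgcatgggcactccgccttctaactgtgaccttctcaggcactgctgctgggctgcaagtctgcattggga

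Whether the transplants differ from primary tumors was compared at each dose, antibodies averaged. This comparison shares its unirradiated primary tumors with the radiation comparison above. Without radiation, 4 members were higher in the 8 transplants than in the 16 primary tumors and none was lower, where 11.3% of the genes tested were higher. They were Gsdmd, Fas, Casp1 and Tnfsf10, and the median log2 difference of the 9 genes was 0.26 against 0.0047 over all genes.

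Gsdmd differed most, 1.89-fold (log2 0.92 ± 0.13, edgeR adjusted p = 1.29e-06). With isotype its 4 unirradiated transplants, at 61.6 to 80.0 CPM, lay above all 8 primary tumors, whose highest was 46.1 CPM. With anti-PD-1 the 4 transplants, at 77.2 to 101.2 CPM, also lay above all 8 primary tumors, whose highest was 67.5 CPM. The share of all genes with such a separation is not given here. Fas was 1.73-fold higher (log2 0.79 ± 0.24, edgeR adjusted p = 0.0113), at 8.99 to 21.3 CPM in the transplants and 2.48 to 13.1 CPM in the primary tumors, which overlapped. Casp1 was 1.73-fold higher (log2 0.79 ± 0.25, edgeR adjusted p = 0.0163), at 9.87 to 28.1 CPM against 5.41 to 15.4 CPM. This call ended without transplant 0 Gy isotype replicate 3 (edgeR adjusted p = 0.0591) or 0 Gy anti-PD-1 replicate 1 (0.0531) or 3 (0.0562). Tnfsf10 was 1.68-fold higher (log2 0.75 ± 0.27, edgeR adjusted p = 0.0382), at 7.80 to 45.4 CPM against 4.54 to 20.6 CPM. That call ended in 12 of the 24 fits that left out 1 library, with an adjusted p of at most 0.181: without transplant 0 Gy isotype replicate 2 or 3, transplant 0 Gy anti-PD-1 replicate 1 or 3, primary 0 Gy isotype replicate 1, 5, 7 or 8, or primary 0 Gy anti-PD-1 replicate 3, 5, 6 or 7. It also ended with the skeletal muscle list mean as a covariate (edgeR adjusted p = 0.0716), without the filter on low counts (edgeR adjusted p = 0.0659) and by limma voom (adjusted p = 0.127).

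The other 5 did not pass. Tnfrsf10b differed by -0.25 on the log2 scale (95% interval -0.53 to 0.03), Casp4 by 0.19 (-0.49 to 0.86), Casp8 by 0.04 (-0.11 to 0.19), Mlkl by 0.15 (-0.23 to 0.53) and Ripk3 by 0.26 (-0.08 to 0.60). The Ripk3 value turned on 1 library: without primary 0 Gy anti-PD-1 replicate 4, at 83.0 CPM far above the 7 others of its group (20.5 to 38.3 CPM), the edgeR adjusted p was 0.0472.

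At 20 Gy, 3 members were higher in the transplants and none was lower, where 6.76% of the genes tested were higher. Casp1 was 1.74-fold higher (log2 0.80 ± 0.25, edgeR adjusted p = 0.0216), at 23.3 to 69.2 CPM in transplants and 4.52 to 50.3 CPM in primary tumors; the call ended without transplant 20 Gy isotype replicate 1 (edgeR adjusted p = 0.0542) or 20 Gy anti-PD-1 replicate 3 (0.0544). Gsdmd was 1.45-fold higher (log2 0.53 ± 0.13, edgeR adjusted p = 0.00428), at 102.8 to 141.5 CPM against 46.2 to 132.9 CPM. Casp8 was 1.18-fold higher (log2 0.24 ± 0.08, edgeR adjusted p = 0.0284), at 81.5 to 101.5 CPM against 56.0 to 90.9 CPM; the call ended without transplant 20 Gy isotype replicate 4 (edgeR adjusted p = 0.0624) or primary 20 Gy anti-PD-1 replicate 5 (0.0591). It ended too without the filter on low counts (edgeR adjusted p = 0.0776), and fitted on their own groups neither Casp8 (0.102) nor Casp1 (0.087) passed. Fas differed by 0.04 (95% interval -0.43 to 0.52) at this dose. In these comparisons macrophage markers were lower for 1 of 10 in transplants and higher for none at each dose, T cell markers were higher for 6 of 8 at 0 Gy and 1 of 8 at 20 Gy, and mesenchymal markers were lower for 3 of 7 and 1 of 7. At 0 Gy neutrophil markers were higher for 3 of 6 (median sums of 95.7 CPM in transplants and 30.8 CPM in primary tumors), adipose markers for 4 of 4 (11.5 and 3.29 CPM) and skeletal muscle markers for 1 of 9 (5717 and 1830 CPM). NK cell markers at 0 Gy were higher for 2 of 5 and lower for 1 (44.3 and 16.7 CPM). None of these 4 lists had a marker that passed at 20 Gy, whereas Ptprc was higher at both doses (log2 0.74 and 1.28). The summed T cell markers had a median of 100.1 CPM in unirradiated transplants (lowest 45.9 CPM, highest 224 CPM) and 36.1 CPM in unirradiated primary tumors (lowest 15.98 CPM), and the highest primary tumor lay above the median of the transplants, so that the groups overlapped. With the macrophage list mean as a covariate the same 4 members at 0 Gy and 3 at 20 Gy were higher. In that fit 5431 and 3079 of all genes differed in either direction, against 4840 and 2981 without it. How many of these were higher is not given here. The macrophage and muscle list means are RNA of the same tumors, so fits with them cannot separate cell content from RNA per cell. The part of these cells in the differences of the 9 genes was not tested.

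**Figure D4:**
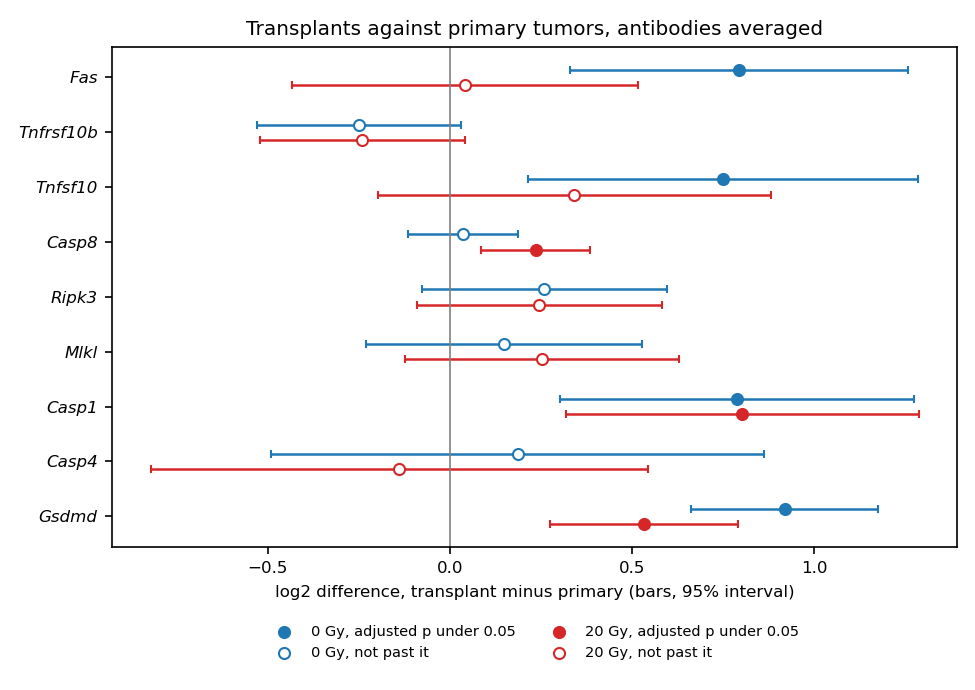
Fitted log2 difference of transplants minus primary tumors (horizontal axis; bars, 95% interval) for each gene (vertical axis) at 0 Gy (blue) and 20 Gy (red), antibodies averaged; filled points have an adjusted p under 0.05. Gsdmd and Casp1 are above 0 at both doses, at 0.92 and 0.79 without radiation and 0.53 and 0.80 with it.

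Anti-PD-1 against isotype, doses averaged, changed no member by edgeR in primary tumors, where 0.0155% of the genes tested passed, nor in transplants, where 0% did. At an unadjusted p under 0.05 there was 1 member in primary tumors, Gsdmd (log2 0.305 ± 0.11, edgeR adjusted p = 0.582), and there were 3 in transplants: Fas (log2 0.66 ± 0.28), Casp1 (log2 0.71 ± 0.29) and Tnfsf10 (log2 0.65 ± 0.32), each with an edgeR adjusted p of 1. The share of all genes at an unadjusted p under 0.05 is not given here, so these counts have no background. DESeq2 and limma voom called no member either. The radiation by anti-PD-1 interaction was likewise passed by no member in either model, where 0% of the genes tested passed. In primary tumors the Gsdmd interaction had the lowest unadjusted p, 0.014 (log2 -0.56 ± 0.22, edgeR adjusted p = 0.747), and it was the 1 member under 0.05; in transplants there was none. For Casp8 the interaction in primary tumors was -0.002 (95% interval -0.25 to 0.24), and for Casp4 it was -0.76 (-1.87 to 0.36), so that sizeable interactions of Casp4 were not detectable with these numbers of tumors.

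Read within 1 antibody, radiation raised 6 members in primary tumors with isotype (Fas, Tnfsf10, Casp1, Casp4, Mlkl and Gsdmd), where 9.19% of the genes tested rose, and 5 with anti-PD-1 (the same without Mlkl), where 7.92% rose. Fitted on their own 16 libraries, the anti-PD-1 groups gave 0, where 825 of all genes were called. In transplants of 4 against 4, none passed with isotype, where 1.92% of the genes tested changed, nor with anti-PD-1, where 0.595% changed. At an unadjusted p under 0.05 there were 6 members with isotype and 4 with anti-PD-1, and the share of all genes there is not given here. Fitted on their own 8 libraries, the isotype transplants gave 6 members past the threshold, where 966 of all genes were called. These were Tnfsf10, Casp1, Casp4, Casp8, Mlkl and Gsdmd. DESeq2 gave 2 in each antibody, where it called 599 genes with isotype and 481 with anti-PD-1. With anti-PD-1 limma voom gave 1, Casp1, where it called 327 genes. Without transplant 0 Gy isotype replicate 3, Tnfsf10 (edgeR adjusted p = 0.0269) and Casp8 (0.0363) passed with isotype. Between models, 1 member, Gsdmd, was higher in transplants at 0 Gy with isotype (log2 1.06, edgeR adjusted p = 0.00019), where 3.88% of the genes tested were higher. At 20 Gy with anti-PD-1, Casp1 (log2 1.275), Casp8 (log2 0.335) and Gsdmd (log2 0.63) were higher, where 3.04% of the genes tested were; this count fell to 0 without transplant 20 Gy anti-PD-1 replicate 3, and to 1 without transplant replicate 1 or 2 or primary replicate 2, 5 or 6 of that treatment.

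The pathways around the 9 genes were read from lists of genes chosen by name, also with earlier results of these data known. The shares of all genes tested that rose with radiation, 16.8% in primary tumors and 5.85% in transplants, are the background of each count that follows. Of 21 inflammasome and pyroptosis genes tested, 19 rose with radiation in primary tumors and 13 in transplants and none fell, with median log2 changes of 1.18 and 1.13. The highest in primary tumors were the cytokine Il1a (log2 3.29 ± 0.50, edgeR adjusted p = 2.52e-06), the guanylate-binding protein gene Gbp5 (log2 2.44 ± 0.26, edgeR adjusted p = 5.57e-09) and Mefv, which encodes pyrin (log2 1.84 ± 0.30, edgeR adjusted p = 9.71e-06). The sensors Nlrp3 (1.18), Naip2 (1.35), Naip5 (1.19), Naip6 (1.15), Nlrp1b (0.86), Nlrc4 (0.74) and Aim2 (0.71), the adaptor Pycard (0.895), the cytokines Il1b (1.405) and Il18 (1.06), the GTPase genes Irgm1 (1.77), Irgm2 (1.73) and Gbp2 (1.58), Gsdma (1.74), Ninj1 (0.68), which encodes the protein that ruptures the membrane of dying cells, and Casp12 (0.57) also rose on the log2 scale. The gasdermin gene Gsdme was among those that did not pass (log2 -0.14). The Naip genes are close paralogs among which reads may be split.

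Of 7 necroptosis genes, 4 rose with radiation in primary tumors and 5 in transplants, and none fell. In primary tumors these were Zbp1, the nucleic acid sensor that binds RIPK3 (log2 2.14 ± 0.24, edgeR adjusted p = 9.61e-09), the receptors Tlr3 (1.42 ± 0.20, edgeR adjusted p = 5.71e-07) and Tlr4 (0.44 ± 0.11, edgeR adjusted p = 0.00308), and the kinase Ripk1, also on the list of adaptors (0.16 ± 0.06, edgeR adjusted p = 0.045). Among 14 other ligands and receptors, 3 rose in each model, in primary tumors a share near the 16.8% of all genes, and none fell: Tnf (log2 1.85 in primary tumors and 1.74 in transplants), Tnfsf15 (1.67 and 1.95) and Tnfrsf21 (0.48 and 0.795). Fasl, the ligand of Fas, had log2 changes of 0.79 and 0.69 and passed in neither. Of the 16 adaptors, caspases and inhibitors reported here, 7 rose in primary tumors. These were the ubiquitin-editing enzyme Tnfaip3 (log2 1.28 ± 0.14, edgeR adjusted p = 8.59e-09), the linear ubiquitin ligase subunits Rnf31 (0.74) and Sharpin (0.23), the inhibitors Birc3 (0.65) and Birc2 (0.43), Bid (0.44) and Ripk1. In transplants Birc3 (0.655), Rnf31 (0.64), Ripk1 (0.34) and Cflar (0.66), the inhibitor of caspase-8, rose. Fadd, the shared adaptor, had log2 changes of -0.02 and 0.09.

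Of 10 p53 target genes, 6 rose with radiation in primary tumors and 3 in transplants. Cdkn1a (log2 2.33 in primary tumors and 1.75 in transplants), Mdm2 (0.45 and 0.46) and Sesn2 (0.59 and 1.015) rose in both. Ccng1 (1.21), Trp53inp1 (1.08) and Aen (0.46) rose in primary tumors. The Trp53 deletion was made in the cells that form the tumor, whereas bulk samples also hold host cells. In which cells these genes rose was not tested. Of the 9 genes, the p53 targets Fas and Tnfrsf10b had log2 changes of 1.24 and -0.03 in the same primary tumors. Of 15 intrinsic apoptosis genes tested, 5 rose (Pmaip1, log2 0.70; Bax, 0.60; Mcl1, 0.435; Bbc3, 0.35; Bcl2l1, 0.305) and Bcl2 fell (log2 -0.33) in primary tumors, and 6 rose in transplants. All 14 interferon response genes rose in primary tumors (median log2 1.89) and 11 in transplants (median log2 2.13).

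Without radiation, 9 of the 21 inflammasome and pyroptosis genes were higher in transplants than in primary tumors and none was lower, where 11.3% of the genes tested were higher. These were Mefv (log2 2.025), Gbp5 (1.81), Il1b (1.72), Gbp2 (1.60), Irgm2 (1.17), Naip2 (1.07), Irgm1 (0.87), Pycard (0.79) and Naip5 (0.68), next to Casp1 and Gsdmd among the members. Of the ligands and receptors, Tnf (1.44), Fasl (1.18) and Tnfsf15 (1.04) were higher and Tnfrsf11b (-1.88), which encodes the soluble decoy receptor osteoprotegerin, and Eda2r (-0.865) were lower. Of the adaptors, caspases and inhibitors, Tnfaip3 (0.85), Casp6 (0.43), Birc3 (0.40), Bid (0.35) and Rnf31 (0.27) were higher, and Cflar (-0.53) and Traf2 (-0.30) were lower. Zbp1 (1.01) was higher and the adaptor Ticam1 (-0.44) lower among the necroptosis genes. Phlda3 (-0.82), Sesn2 (-0.74) and Zmat3 (-0.44) were lower among the p53 targets. Bak1 (0.46) and Pmaip1 (0.62) were higher and Bcl2l1 (-0.61), Bbc3 (-0.555) and Bcl2l2 (-0.285) lower among the intrinsic apoptosis genes, and 4 of 14 interferon response genes were higher.

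The 2 libraries of line 402230, 1 each and so without a test, separated the members. In the library labelled as the parental tumor, which had almost no leukocyte markers, Casp1 had 1 count (0.0227 CPM), Casp4 had 4 counts (0.0909 CPM) and Tnfsf10 had 15 counts (0.341 CPM), each below all 48 tumors, whose lowest values were 4.29, 1.44 and 2.73 CPM. Fas, at 1.09 CPM (48 counts), was also below the lowest tumor, at 2.38 CPM, and Gsdmd, at 16.7 CPM, was below all 48 tumors. In the same library Tnfrsf10b (90.2 CPM) was above all 48 tumors, Mlkl (4179 counts) was above all 12 unirradiated isotype tumors (22.6 to 78.6 CPM), Ripk3 (53.1 CPM) was within their range (22.7 to 63.5 CPM) and Casp8 (43.3 CPM) was below all 48 tumors, whose lowest was 53.2 CPM. The library labelled as the cell line, which had macrophage and endothelial markers, had Fas at 6.5, Tnfrsf10b at 56.6, Tnfsf10 at 5.31, Casp1 at 5.96, Casp4 at 6.76, Casp8 at 53.8, Ripk3 at 47.5, Mlkl at 27.8 and Gsdmd at 42.8 CPM. All 9 of these lay within the range of the 48 tumors.

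**Figure D5:**
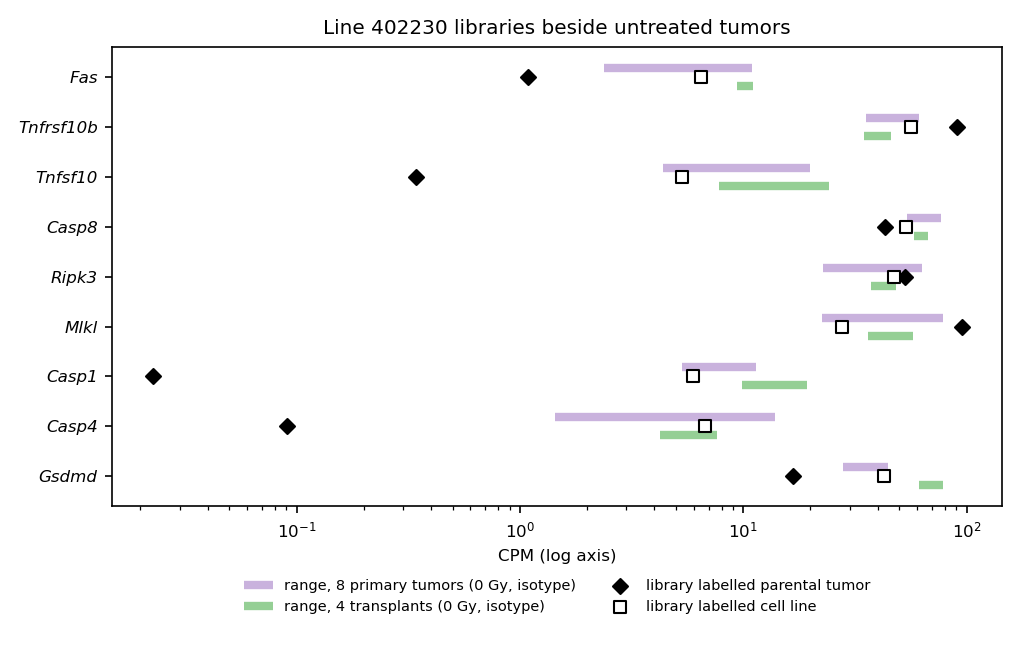
CPM (horizontal log axis) of each gene (vertical axis) in the library labelled as the parental tumor (black diamonds) and the library labelled as the cell line (open squares), 1 library each, beside the ranges of 8 primary tumors (purple) and 4 transplants (green) at 0 Gy with isotype. Casp1, Casp4, Tnfsf10 and Fas are far to the left in the first library, whereas Tnfrsf10b and Mlkl lie to the right of both ranges.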

How the data were processed

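Total RNA of 48 tumors and 2 libraries of line 402230 was sequenced from poly(A)-selected, paired-end libraries. The authors deposited whole-number read counts per gene, not normalized. Before that, as their methods and labels state, adapters were removed (Trimmomatic 0.36), STAR placed the reads on mm10 and HTSeq assigned them to genes; the strand setting of the counting is not given in the sources used here. Genes that low counts removed (filterByExpr by group) were left out, which kept 19327 genes and all 9 members. Counts were scaled by TMM and fitted over the 48 tumors by group with the quasi-likelihood test of edgeR 4.0.16 (R 4.3.3), with p-values adjusted by Benjamini-Hochberg over all genes and called under 0.05. Standard errors were derived from the log2 change and its F statistic, and 95% intervals assume a normal distribution. Log2 CPM used a prior count of 2. The alternatives were DESeq2 1.42.0 and its size factors, limma 3.58.1 (voom), no filter, covariates, other sets of libraries and each library left out. Simulated counts tested the fit: in primary tumors 65% of genes changed by a log2 of 1 were recovered, and in transplants 52%. Of the calls in these simulations, 11 of 159 were false in primary tumors and 6 of 128 in transplants.

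The members and gene lists were chosen with earlier results of these data known. All 9 members are named, list genes are named where they passed in a main comparison, and further genes by the 3 highest correlations with a member. Results for 2 genes of the list of adaptors, caspases and inhibitors are not reported here, and its counts are over the 16 others. Promoter windows came from RefSeq (GRCm38.p6) and gene positions from GENCODE. Tumor libraries held 31810461 to 54008259 counts, and no pair of replicates agreed within sampling noise.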

Additional observations from a re-analysis of the deposited data

Results flagged for a closer look

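In 72 sets of 4 or 8 tumors of 1 gene and 1 treatment, 5 values, from 4 tumors, stood apart from their group by Dixon's test at the 95% level, where chance gives about 1 in 20, or 3.6. Ripk3 stood at 83.04 CPM in primary 0 Gy anti-PD-1 replicate 4, with the 7 others at 20.5 to 38.3 CPM. The same tumor had the highest Casp4 of its group, 16.34 CPM against 3.162 to 8.049 CPM. Casp4 was also high in transplant 20 Gy isotype replicate 1, at 21.34 CPM against 11.45 to 12.67 CPM, and without this library its rise in transplants had an edgeR adjusted p of 0.0617. Casp1 reached 50.32 CPM in primary 20 Gy isotype replicate 5, with the others at 12.32 to 28.73 CPM. Tnfrsf10b was low in primary 0 Gy isotype replicate 7, at 35.2 CPM against 49.36 to 60.42 CPM.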

How the results depend on the processing

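No paired analysis was possible because the labels give no replicate numbers that tie tumors of different groups. Counts below are members past the threshold, of 9. With the macrophage covariate, chosen after the data were seen, radiation gave 2 in transplants (6 as reported) and 2 in primary tumors with anti-PD-1 (5 as reported), and the models differed in 2 at 0 Gy with isotype (1) and 1 at 20 Gy with anti-PD-1 (3). With the library labelled as the parental tumor added to the primary tumors, radiation gave 3 in transplants and 3 in primary tumors with anti-PD-1, and the models differed in 2 at 0 Gy (4), 1 at 20 Gy (3) and 0 at 20 Gy with anti-PD-1; that library goes against its label. Fitted on their own groups, radiation gave 6 in isotype transplants (0) and 0 in anti-PD-1 primary tumors, and the models differed in 1 at 20 Gy and 0 at 20 Gy with anti-PD-1. DESeq2 gave 2 in transplants of each antibody (0), its size factors 1 with isotype, limma voom 1 in anti-PD-1 transplants and 2 in anti-PD-1 primary tumors, and no filter 1 between models at 20 Gy with anti-PD-1 and 4 for radiation in transplants. The cause was not tested.

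With 1 library left out, radiation gave 7 in primary tumors, 4 to 6 in transplants, 5 to 7 and 4 to 7 in primary tumors with isotype and anti-PD-1, 0 to 2 in isotype transplants and 0 in anti-PD-1 transplants. Over all genes these fits called 5098 to 6496 in primary tumors and 993 to 1543 in transplants. Within isotype and anti-PD-1 they called 2641 to 4117 and 1446 to 2882 in primary tumors, and 72 to 631 and 3 to 180 in transplants. The models differed in 2 to 5 at 0 Gy, 2 to 3 at 20 Gy, 1 at 0 Gy with isotype and 0 to 3 at 20 Gy with anti-PD-1. Over all genes, in the same order, they differed in 3774 to 5044, 2293 to 3652, 1009 to 2248 and 154 to 2353. Of single member values, 47 calls were lost and 22 gained among 1080 under the other alternatives, and none changed sign while called.

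Over all genes, radiation called 5996 in primary tumors (3446 with the macrophage covariate) and 1398 in transplants (546 with it, 2386 on their own groups). Its difference between models called 5 (69 by DESeq2, 13 and 9 with the macrophage and muscle covariates, 0 without the filter). Anti-PD-1 called 3 in primary tumors (14 by DESeq2, 0 by limma voom and on own groups) and 0 in transplants (1 by DESeq2), and its interaction with radiation 0 in primary tumors (9 by DESeq2). With isotype, radiation called 3534 in primary tumors (2043 with the macrophage covariate) and 372 in transplants (599 by DESeq2, 162 with the macrophage covariate, 228 without the filter, 966 on own groups, 153 with the added library). With anti-PD-1 it called 2158 in primary tumors (1304 with the macrophage covariate, 825 on own groups) and 0.595% of all genes in transplants (in genes, 481 by DESeq2, 327 by limma voom, 225 and 15 with the muscle and macrophage covariates, 30 without the filter, 1 on own groups, 14 with the added library). The models at 20 Gy with anti-PD-1 differed in 1307 (2071 by DESeq2, 827 with the macrophage covariate, 742 without the filter, 1 on own groups, 683 with the added library). Groups of 4 transplants limit what single antibodies can show, and scarce members such as Casp4 rest on as few as 56 counts in a library.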
